A study of Mus musculus with 5 samples.

Results

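Type A intercalated cells, the cells of the kidney collecting duct that secrete acid into the urine, made up 484 of the 60043 kept cells in 5 single-cell RNA libraries of mouse kidney. They were chosen by unique molecular identifiers (UMIs), each of which counts 1 captured RNA molecule. A kept barcode had at most 30% of its UMIs from mitochondrially encoded genes and at least 200 genes. A type A cell was a kept barcode with at least 2 UMIs of Atp6v1g3 (ENSMUSG00000026394), at least 2 of Slc4a1 (ENSMUSG00000006574) and Aqp6 (ENSMUSG00000043144) together, more UMIs of that pair than of Slc26a4, and no UMI of Ptprc, the CD45 gene of blood cells. Because these 5 genes and the mitochondrial share chose the cells, the levels of these genes and of mitochondrially encoded genes are given as a description. The 5 genes were not tested. The mitochondrially encoded genes stayed in the fits and in the counts of all genes called, but no result is drawn from their tests.

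All mice were wild-type male C57BL/6 animals of 8 to 10 weeks. The agent was aristolochic acid I (AAI), a plant compound toxic to kidney tubules, given by intraperitoneal injection over 2 weeks, with a dose of 3 mg/kg at intervals of 3 days. The acute kidney injury (AKI) group of 2 libraries was taken at week 2, the chronic kidney disease (CKD) group of 2 libraries at week 4 after 2 weeks of withdrawal, and the control was 1 library of mice given vehicle. The kidneys were minced, digested with enzymes and filtered before droplet capture. The methods count samples per group, as above, without saying whether a sample is 1 animal or a pool, so p-values measure only the spread between these libraries, which may be technical. With 1 control library, that library and its condition cannot be told apart, and its spread was taken to be that of the other groups.

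Type A cells pump protons across the apical membrane with a vacuolar H+-ATPase (V-ATPase), whose V1 sector splits ATP and whose V0 sector carries the protons. Cytosolic carbonic anhydrase supplies the protons, and the basolateral anion exchanger AE1, encoded by Slc4a1, returns bicarbonate to the blood. Pendrin-positive intercalated cells, marked by the apical exchanger Slc26a4, secrete bicarbonate, while principal cells reabsorb sodium and water through ENaC and Aqp2. The forkhead factor Foxi1 is needed for the intercalated lineage and drives V-ATPase genes.

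The promoters of genes that chose or set apart these cells are shown because Foxi1 marks the lineage. Each is 300 bases from RefSeq on GRCm38.p6, from 250 bases before to 50 after the annotated start, and all 4 lie on the plus strand. Capitals mark the letters TGTTTAC, a forkhead-type motif searched on both strands. Atp6v1b1, the V1 subunit of intercalated cells, lies at chr6:83742767-83743066. Atp6v1g3, the intercalated V1 G subunit, lies at chr1:138273488-138273787. Aqp6, an aquaporin of type A cell vesicles, lies at chr15:99600950-99601249. Dmrt2, a transcription factor gene of type A cells, lies at chr19:25672161-25672460.
Atp6v1b1: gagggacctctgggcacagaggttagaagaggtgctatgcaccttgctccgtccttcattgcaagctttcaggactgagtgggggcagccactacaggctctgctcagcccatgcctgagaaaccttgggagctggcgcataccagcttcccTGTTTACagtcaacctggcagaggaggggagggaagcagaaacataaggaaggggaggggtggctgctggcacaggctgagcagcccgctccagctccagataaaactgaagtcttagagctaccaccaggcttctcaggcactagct
Atp6v1g3: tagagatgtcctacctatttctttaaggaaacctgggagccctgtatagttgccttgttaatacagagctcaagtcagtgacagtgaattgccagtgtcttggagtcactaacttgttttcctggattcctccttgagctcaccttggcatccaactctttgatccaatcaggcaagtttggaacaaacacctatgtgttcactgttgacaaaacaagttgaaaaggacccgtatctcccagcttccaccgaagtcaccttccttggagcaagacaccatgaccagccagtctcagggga
Aqp6: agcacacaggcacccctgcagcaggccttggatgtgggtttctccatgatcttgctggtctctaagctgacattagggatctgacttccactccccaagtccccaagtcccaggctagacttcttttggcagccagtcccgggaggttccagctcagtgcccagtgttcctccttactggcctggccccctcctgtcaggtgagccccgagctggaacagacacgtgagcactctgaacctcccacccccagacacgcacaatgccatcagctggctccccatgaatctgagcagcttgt
Dmrt2: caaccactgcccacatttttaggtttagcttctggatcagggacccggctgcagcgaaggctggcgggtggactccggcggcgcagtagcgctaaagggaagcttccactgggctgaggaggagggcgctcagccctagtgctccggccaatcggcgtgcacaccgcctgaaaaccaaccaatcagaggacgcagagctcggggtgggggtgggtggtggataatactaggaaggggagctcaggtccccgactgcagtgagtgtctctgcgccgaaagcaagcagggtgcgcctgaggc

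Atp6v1b1 held 1 match, starting at base 153 of the window, and the other 3 windows held none. Among all promoters of this length, 1199 of 32851 (3.65%) held the motif. The share was 1 of 21 promoters (4.76%) for the 18 V-ATPase genes with an entry, and 3 of 71 (4.23%) for 54 genes of the intercalated lists. A match in these letters is a description of the window and does not show that a factor binds there.

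The kept cells of the 5 libraries had median UMI counts between 3151 and 5774.5, and the deposited matrices summed to between 90028670 and 121316769 UMIs. T lymphocytes, meaning kept cells with at least 2 Cd3 UMIs and 1 of Ptprc, made up 12.7% of kept cells in control and 34.0 to 66.9% in the AKI and CKD libraries. A barcode share of 38.7% was above the mitochondrial limit in control, against 11.1 to 12.7% in the other libraries. No type A cell shared its barcode with a cell of another library that was over 20 times deeper.

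Type A cells formed 223 of 9168 kept cells in control (2.43%, exact binomial 95% interval 2.13 to 2.77). In AKI they were 68 of 11203 (0.607%, 0.472 to 0.769) and 46 of 10852 (0.424%, 0.310 to 0.565) in libraries 1 and 2. In CKD they were 124 of 19314 (0.642%, 0.534 to 0.765) and 23 of 9506 (0.242%, 0.153 to 0.363). These intervals, like all intervals here, cover counting error only. The control share lay above all 4 others, and the AKI and CKD libraries overlapped. The mean share was 0.515% in AKI and 0.442% in CKD, a CKD minus AKI difference of -0.0734 percentage points against a pooled standard deviation of 0.220 (n = 2 libraries each). An exact permutation test of 2 against 2 libraries cannot give a two-sided p under 1 in 3. The difference was -0.165 without AKI 2 and -0.273 without CKD 1, but 0.0181 without AKI 1, 0.127 without CKD 2 and 0.0393 with members of at most 2 Aqp2 UMIs, so its sign changed with the libraries and members kept.

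As the share of all kept cells moves with the number of immune cells, 2 other denominators were used. Among kept cells with no Ptprc UMI, type A cells were 3.55% in control, 2.20 and 1.70% in AKI, and 1.39 and 1.56% in CKD. Here both CKD libraries lay below both AKI libraries, with a difference of -0.473 points against a pooled standard deviation of 0.262. Among type A and pendrin-positive cells together, type A cells were 43.6% in control, 65.4 and 61.3% in AKI, and 40.4 and 63.9% in CKD. Both AKI libraries lay above control on this measure, while CKD 1 lay beside control and CKD 2 beside AKI. The pendrin-positive cells numbered 288 in control, 36 and 29 in AKI, and 183 and 13 in CKD.

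**Figure D1:**
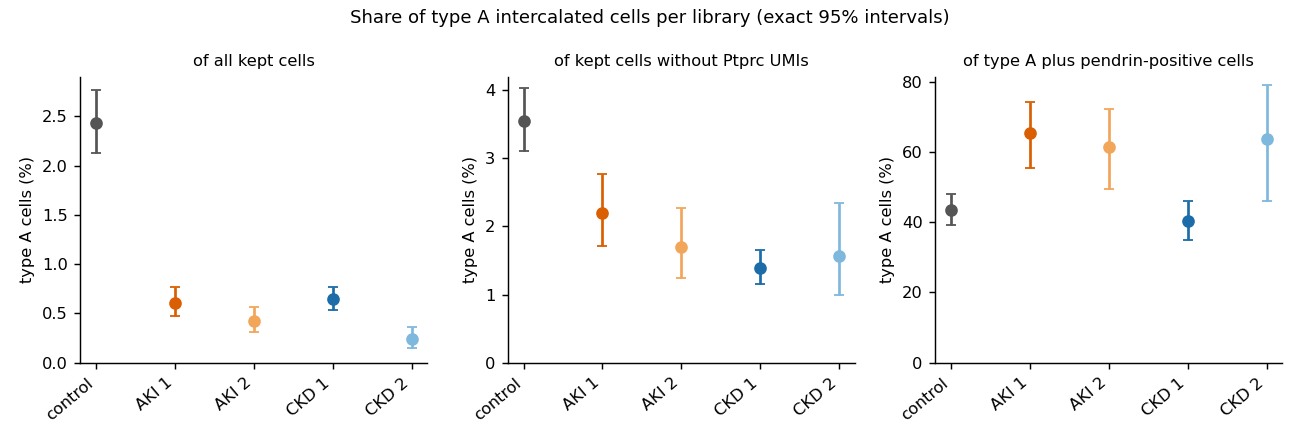
Percent of type A intercalated cells in each library, as a share of kept cells, of kept cells without Ptprc UMIs, and of type A plus pendrin-positive cells. Points are libraries and bars are exact 95% binomial intervals, which cover counting error only. Control lies above the other 4 libraries in the first panel, at 2.43% against 0.242 to 0.642%.

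Cells on either side of the rule's thresholds were counted. Exactly 2 UMIs of Atp6v1g3 were found in 6 control members, 1 and 2 AKI members and 12 and 1 CKD members. Cells that met every other condition but had 1 Atp6v1g3 UMI numbered 11 in control, 3 and 0 in AKI, and 18 and 0 in CKD. The limit on Slc4a1 and Aqp6 left out more cells: 27 in control, 13 and 6 in AKI, and 79 and 3 in CKD had only 1 UMI of the pair. A further 78 control cells, 48 and 41 AKI cells, and 73 and 25 CKD cells were left out for a Ptprc UMI. Beside the members kept, 223 in control, 68 and 46 in AKI, and 124 and 23 in CKD, these losses were relatively smallest in control. The type A shares above thus depend on the Ptprc condition. CKD 1, the library with the shallowest members, held most of the cells just under the Atp6v1g3 and the pair limits.

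Type A cells were deep. Their median UMI count was 18458 in control, 23357.5 and 24271 in AKI, and 5703.5 and 20186 in CKD, so CKD 1 stood apart. The median share of mitochondrially encoded UMIs was 18.8% in control, 11.0 and 11.1% in AKI, and 14.4 and 14.9% in CKD. To compare conditions, the UMIs of all members of a library were summed, and levels below are UMIs per 10000 UMIs of that sum. A lower level in such a sum cannot tell fewer cells with a transcript from less transcript per cell.

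Of the genes that chose the cells, Slc4a1 was at 9.15 UMIs per 10000 in control, 3.62 and 2.66 in AKI, and 4.15 and 2.47 in CKD. All 4 injured libraries lay below control. Aqp6 was at 18.3 in control, 17.1 and 14.9 in AKI, and 13.3 and 15.3 in CKD, a narrower range. Atp6v1g3 was at 27.7 in control, 24.8 and 22.9 in AKI, and 25.7 and 39.1 in CKD, where CKD 2 was the highest library. An Slc4a1 UMI was found in 93.7% of members in control, 72.1 and 67.4% in AKI, and 69.4 and 73.9% in CKD. In T lymphocytes, which should lack Slc4a1 and had medians of 3615 to 5952.5 UMIs, that share was 0.220 to 3.27%. With every cell thinned to 2000 UMIs the shares in members were 74.2% in control, 39.7 and 35.6% in AKI, and 46.2 and 36.4% in CKD, leaving out 6, 5, 1, 7 and 1 shallower cells. The order of control over the other libraries held at this equal depth. A member entered with Slc4a1 or with Aqp6, so these shares depend on the rule and are a description.

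Many members also carried Aqp2, the water channel of principal cells. At least 10 Aqp2 UMIs were found in 91 of 223 control members (40.8%), 22 of 68 (32.4%) and 20 of 46 (43.5%) in AKI, and 36 of 124 (29.0%) and 1 of 23 (4.35%) in CKD. The members with 0 to 2 Aqp2 UMIs numbered 110 in control, 37 and 24 in AKI, and 79 and 21 in CKD. CKD 2 was nearly without the Aqp2-rich members. The Aqp2-rich members were deeper: their median was 24203 UMIs in control, 40772 and 32455.5 in AKI, and 14351.5 in CKD 1, against 13820, 17572, 15516.5 and 4860 in the Aqp2-poor members.

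The 2 sets also differed in level per 10000 UMIs. Atp6v1g3 was at 19.4 in the Aqp2-rich and 39.9 in the Aqp2-poor members of control, and the Aqp2-poor members were the higher set in every library. Hsd11b2, the enzyme that protects the mineralocorticoid receptor in principal cells, was at 29.5 against 0.929 in control, in the opposite direction. Foxi1 was at 3.14 against 6.48 in control, and Kit, a receptor tyrosine kinase of type A cells, at 2.80 against 5.29. The Aqp2-rich barcodes thus held markers of both cell types. Doublets of a type A with a principal cell and single cells with both programmes cannot be told apart here, no doublet caller was run, and the main counts and lists below are also given for the Aqp2-poor members where their calls changed.

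**Figure D2:**
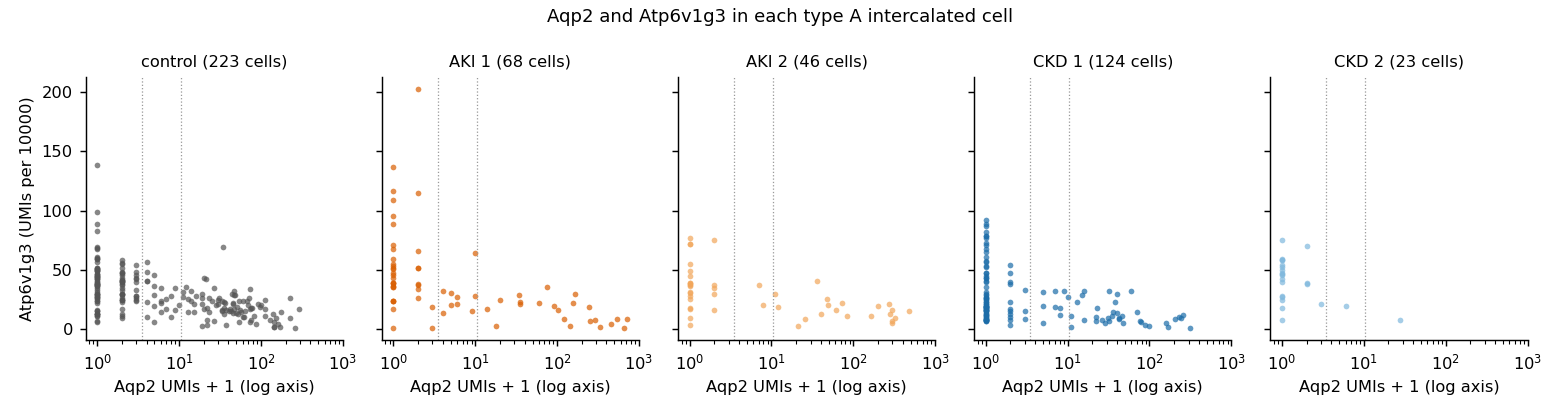
Each point is 1 type A cell, with its Aqp2 UMIs plus 1 on a log axis and its Atp6v1g3 level in UMIs per 10000, in 1 panel per library. Dotted lines mark the limits of the Aqp2-poor (0 to 2) and Aqp2-rich (10 or more) sets, and 91 of 223 control members but 1 of 23 members of CKD 2 lie to the right of the upper limit.

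The identity of the members was checked on genes the rule did not use, by setting the sums beside those of 549 pendrin-positive and 1260 principal cells of the same libraries. Pendrin-positive cells had at least 2 UMIs of Atp6v1g3 and of Slc26a4 with Slc26a4 above the Slc4a1 and Aqp6 pair, and principal cells had at least 3 Aqp2 UMIs, under 2 of Atp6v1g3 and none of the exchanger genes or Aqp6. As the classes were chosen in these same cells, a gene that follows the choosing genes from cell to cell differs between the classes in part by choice. The tests used edgeR's quasi-likelihood model over the sums with the library as a block, with Benjamini-Hochberg adjusted p-values over all genes tested. A gene was called at an adjusted p under 0.05. Against pendrin-positive cells, 671 genes were higher and 677 lower in type A cells of 8708 tested, or 15.5% of genes (7.71% higher, 7.77% lower). Against principal cells, 1179 were higher and 1162 lower of 9358 tested, or 25% of genes (12.6% higher, 12.4% lower). The counts fell to 356 and 1079 without the library block, while without 1 library they were 867 to 1397 and 1453 to 2239. The count of 867, which came without control, and that of 1453, also without control, were each under the main count by over 1.5 times.

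Dmrt2 was the gene with the largest rise over pendrin-positive cells by the naming rule. It was at 1.37 UMIs per 10000 in control, 1.45 and 1.93 in AKI, and 1.09 and 1.94 in CKD, against 0 to 0.178 in pendrin-positive cells, a log2 difference of 4.33 (SE 0.24, adjusted p = 1.42e-09). Kit was at 3.82 in control, 2.31 and 2.60 in AKI, and 2.28 and 3.22 in CKD, against 0.0766 to 0.572, a log2 difference of 2.81 (SE 0.16, adjusted p = 2.44e-09). Adgrf5, an adhesion receptor coupled to G proteins, was 2.64 higher on the log2 scale (SE 0.19), at 5.51 to 8.41 against 0.606 to 1.49. These 3 genes did not overlap between the classes in any library. The largest rises also included Muc20 (4.09), Mme (2.67), the gene of neprilysin, Pdlim3 (2.63), Cryab (2.30), a small heat shock protein, Anxa1 (2.23), Tgif1 (2.09) and Tmem158 (1.96), all as log2 differences. The Anxa1 call was lost with the Aqp2-poor members and that of Tmem158 without the library block. Elf5, an ETS family factor singled out after its values had been seen, was 4.22 higher than in pendrin-positive cells. Against principal cells it was called lower, with a log2 difference of -1.13, and it was found in 14.5 to 23.9% of members.

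Genes lower in type A than in pendrin-positive cells included a pair of homeobox and receptor genes. Hmx2 was at 0.139 to 1.01 UMIs per 10000 in type A and at 2.78 to 5.69 in pendrin-positive cells, a log2 difference of -3.07 (SE 0.29). Insrr, the insulin receptor-related receptor that senses alkaline pH, was at 0.107 to 0.862 against 2.04 to 3.98, a difference of -2.49 (SE 0.27). The largest falls on the log2 scale were further Dcn (-3.37), the matrix proteoglycan decorin, Sh2d4b (-3.11), Aldh1l2 (-3.06), Syt7 (-2.91), Myo5a (-2.86), Ank (-2.79), Pmp22 (-2.77) and Thsd7a (-2.64). Foxi1, shared by both intercalated types, had a log2 difference of -0.14 (adjusted p = 0.458 by edgeR's quasi-likelihood test).

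The acid-base genes split between the intercalated types. Of 18 tested genes of the acid-base and ion transport list, 3 were higher and 7 lower in type A cells. For this and the lists below, 7.71% of all genes were called higher and 7.77% lower. The higher ones included Slc12a2, the NKCC1 cotransporter (1.80), and Rhbg, an ammonia transporter (0.45). The lower ones included Slc4a9, the AE4 transporter of pendrin-positive cells (-1.68), Car15, a membrane-bound carbonic anhydrase (-1.52), and Car12, an extracellular carbonic anhydrase (-1.33). Of the V1 subunits 5 of 10 were lower in type A, with a median log2 difference of -0.35, and of V0 and accessory subunits 7 of 10, with a median of -0.52. The median over all genes was 0.0089. With the Aqp2-poor members alone, V1 had 1 higher and 1 lower call with a median of -0.11, and V0 had 3 lower with a median of -0.29. In that comparison 574 genes were called in all, 262 higher and 312 lower of 6962 tested. Of the principal cell markers, 9 of 11 were higher in type A than in pendrin-positive cells with all members (median 1.14), and 9 of 10 were lower with the Aqp2-poor members (median -1.57), a set chosen on Aqp2 itself.

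Against principal cells, the intercalated genes stood far higher. Of 11 tested type markers and receptors 9 were higher and none lower, beside 12.6% of all genes called higher, with a median log2 difference of 5.90 beside 0.00062 over all genes. Avpr1a, a vasopressin receptor, was 7.41 higher on the log2 scale (SE 0.25), Kit 7.06 (SE 0.21) and Foxi1 6.07 (SE 0.27, adjusted p = 6.6e-09), the last at 2.19 to 5.30 UMIs per 10000 against 0.0153 to 0.154. Hepacam2 (6.75), Pdlim3 (6.69), Dmrt2 (6.45), Tmem61 (6.40), P2ry14, a UDP-sugar receptor of intercalated cells (6.24), and Malrd1 (6.22) completed the largest rises among genes with a mean log2 CPM of at least 5, together with Atp6v1c2, an intercalated V1 subunit (6.10, SE 0.15). Of the V1 subunits 7 of 10 were higher (median 1.26), and of V0 and accessory subunits 7 of 10 with 1 lower, Atp6v0d1 (median 1.02). Atp6v0a4, the V0 subunit of intercalated cells, was 2.07 higher, Atp6v1b1 2.24, and Car2, cytosolic carbonic anhydrase II, 1.54.

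Summed without Atp6v1g3, which chose the cells, the other 12 V1 genes of the list were at 61.6 UMIs per 10000 in control type A cells, 42.3 and 38.8 in AKI, and 44.8 and 54.0 in CKD. They were at 47.5 to 67.4 in pendrin-positive cells, 20.3 to 26.3 in principal cells and 7.82 to 12.7 in T lymphocytes. Of the nuclear respiratory chain genes, 43 of 79 were called higher than in principal cells (median 0.29), beside 12.6% of all genes. Against pendrin-positive cells 26 of 79 were called lower and 1 higher (median -0.23), beside 7.77% of all genes called lower and 7.71% higher. The largest falls against principal cells were Calb1 (-2.07), the calcium buffer of distal segments, Lcn2 (-1.99), Fxyd4 (-1.83), Gdf15 (-1.76), Bex1 (-1.72), Aqp4 (-1.70), Kl (-1.64), Prom1 (-1.56), Cdk14 (-1.52) and Btc (-1.52). The calls of Lcn2 and Aqp4 were lost without the library block. All 10 tested principal cell markers were called lower, beside 12.4% of all genes, with a median of -1.46. The median was -4.32 with the Aqp2-poor members, a description only, since those members were chosen for low and the principal cells for high Aqp2.

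**Figure D3:**
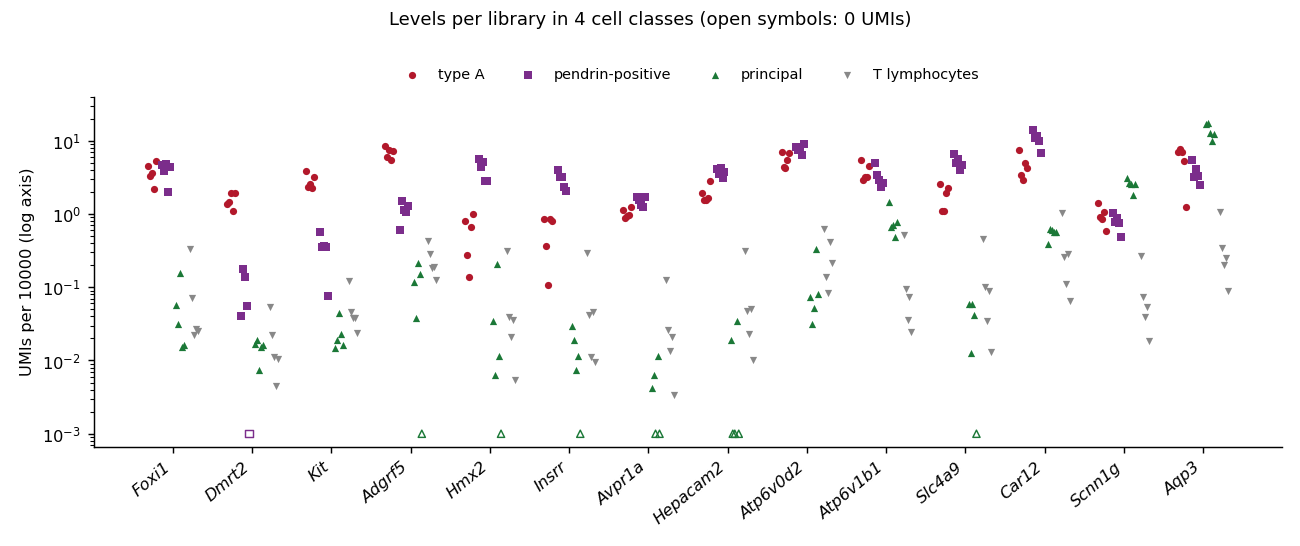
Levels of 14 identity genes in UMIs per 10000 on a log axis, with 1 point per library for type A, pendrin-positive and principal cells and T lymphocytes. Open symbols stand for 0 UMIs. Dmrt2, Kit and Adgrf5 are higher in type A than in pendrin-positive cells in every library, and Hmx2 and Insrr are lower.

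The first question across conditions was whether type A cells changed between the acute and the chronic phase. Of 10148 genes tested between CKD and AKI, 0 were called by edgeR's quasi-likelihood test, so percent called was 0%, while 941 had an unadjusted p under 0.05. DESeq2 called 34, of which 19 were higher in CKD. A block for the replicate number called 190, of which 100 were higher in CKD, although samples numbered alike were not taken as pairs. Leaving out 1 library gave 29 calls without AKI 1, 9 without AKI 2, 544 without CKD 1 and 465 without CKD 2, where the remaining CKD library was assumed to vary like the others.

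Several lists nevertheless leaned to one side between the phases, none with a called member. All 79 nuclear respiratory chain genes were higher in CKD than in AKI, with a median log2 difference of 0.33. All 10 V1 subunits were higher (median 0.37), as were 7 of 10 V0 and accessory subunits (median 0.43). The median over all genes was 0.0057, and it moved to -0.12 without TMM scaling of the libraries. Of the 11 principal cell markers only 1 was higher in CKD (median -0.96), beside the near absence of Aqp2-rich members in CKD 2. Markers of other cells were higher in CKD as well, with all 7 proximal tubule markers (median 2.03), all 7 T lymphocyte markers (median 1.19) and all 5 macrophage markers (median 0.90) above 0. By library these rises rested on CKD 1 for the last pair of lists, since the summed macrophage markers were at 0.837 and 0.959 UMIs per 10000 in AKI and 2.16 and 0.202 in CKD, and the summed T lymphocyte markers at 2.78 and 0.639 in AKI and 5.15 and 0.870 in CKD. The summed proximal tubule markers, at 20.2 and 6.93 in AKI and 23.8 and 17.3 in CKD, overlapped as well. The 13 mitochondrially encoded genes, a description only, were also all above 0 (median 0.68). The part of these in the lean of the other lists was not tested.

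Hmx2 differed between the phases by 2.03 on the log2 scale (SE 0.32) with an adjusted p of 0.119 by edgeR's quasi-likelihood test. It was at 0.271 and 0.139 UMIs per 10000 in AKI and 0.667 and 1.01 in CKD, with 0.805 in control. Insrr was at 0.362 and 0.107 in AKI, 0.845 and 0.809 in CKD, and 0.862 in control. Neither gene overlapped between the phases. Hmx2 was found in 40 of 223 control members, 10 of 68 and 5 of 46 in AKI, and 23 of 124 and 5 of 23 in CKD, with 58.3 and 41.2% of its AKI UMIs and 44% of its CKD 2 UMIs in 1 cell of the library. Both are pendrin-type genes. Members close to the Slc26a4 limit, a split on genes that chose the cells, had 1 or more Slc26a4 UMIs per 2 of the Slc4a1 and Aqp6 pair. They carried much of the signal of both genes except in AKI 2, where they held 4 of 17 Hmx2 and 1 of 13 Insrr UMIs. Such members were 23 of 223 in control (10.3%), 6 of 68 (8.82%) and 1 of 46 (2.17%) in AKI, and 15 of 124 (12.1%) and 4 of 23 (17.4%) in CKD, so that their share, like the level of both genes, was lower in both AKI libraries than in the other 3. Without them Hmx2 was at 0.323 UMIs per 10000 in control, 0.0993 and 0.108 in AKI, and 0.473 and 0.375 in CKD. Insrr was then at 0.504 in control, 0.149 and 0.0992 in AKI, and 0.533 and 0.346 in CKD. The AKI libraries stayed the lowest for both genes in these remaining members, a set chosen after seeing the data, although Hmx2 then rested on 16 and 13 UMIs in AKI.

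Next, AKI was compared with control. Of 10148 genes 224 were higher and 87 lower in AKI, or 3.06% of those tested (2.21% higher, 0.857% lower). The lower ones include 6 mitochondrially encoded genes, which set the limit on which barcodes were kept. Without mitochondrially encoded genes in the fit 304 were called, 81 of them lower, beside 311 in the main fit. The count was 169 without AKI 1 and 167 without AKI 2, with 139 and 145 of the 311 genes still called. It was 1685 without CKD 1 and 1726 without CKD 2, with all 311 still called in each. Removing either CKD library, which enters this comparison through the spread, filter and scaling that all 5 libraries share, raised the count by more than 1.5 times. List counts given below for such settings are to be read beside the totals of all genes. A mitochondrial limit of 15% in place of 30% left 79 calls, and among the genes named below it ended those of Ankrd1, Hmx2, Krt8, Krt18, H2-K1, B2m, Lcn2, Atp6v1a, Rhbg, Rhcg, Bsnd, Slc4a9 and Oxgr1. With the Aqp2-poor members 143 genes were called, and the calls of Sprr2f, Insrr, B2m, Cxcl1, Havcr1, Car12, Rhbg, Rhcg, Bsnd, Slc4a9, Atp6v1a and Oxgr1 were lost. DESeq2 called 174 genes, without Egf, Krt19, Insrr and Bsnd.

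By the naming rule, Plac8, the gene of a small cysteine-rich protein, was among the largest rises and was at 0.0527 UMIs per 10000 in control, 1.18 and 2.37 in AKI, and 1.10 and 1.52 in CKD. A Plac8 UMI was present in 8.07% of control members and in 61.8 and 63.0% of AKI members. Its log2 change was 4.97 in AKI (SE 0.51, adjusted p = 0.00203) and 4.62 in CKD (adjusted p = 0.00817), both by edgeR's quasi-likelihood test. All 4 injured libraries lay above control, and the AKI call held under every setting tried.

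The other large rises rested on few cells. Sprr2f, a small proline-rich protein of injured epithelium, had 0 UMIs in control and 1.96 and 1.07 per 10000 in AKI, at least 232-fold higher against a floor of 3 counts over the group. Of its AKI 1 UMIs 84.4% came from 1 cell, it was found in 10 of 68 and 7 of 46 AKI members, and Sprr2f was not called with the Aqp2-poor members. Ankrd1, a mechanically induced ankyrin protein, was at least 133-fold higher, with 89.5 and 66.8% of the UMIs of each AKI library in 1 cell. Sprr1a was 177-fold higher (counting interval 48.6 to 1473), in 14 of 68 and 5 of 46 AKI members, with 84.2 and 67.9% in 1 cell. Krt19 was at 0.0275 in control and 1.00 and 0.639 in AKI (4.81, SE 0.53), with 61.6% of AKI 1 UMIs in 1 cell. Krt19 was found in 16 of 68 and 17 of 46 AKI members, so for these genes most members had no UMI.

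Among the falls, Egf was at 2.01 UMIs per 10000 in control, 0.0283 and 0.0246 in AKI, and 0.439 and 0 in CKD, a log2 change of -6.27 in AKI (SE 0.74). Slc12a3, the thiazide-sensitive cotransporter, was at 1.43 in control, 0.147 and 0.0492 in AKI, and 0.0975 and 0.0202 in CKD (-3.83 in AKI, SE 0.38, and -4.21 in CKD, SE 0.46). Both are genes of the distal convoluted tubule, and both were also lower in AKI in principal cells, where Egf was at 5.65 in control and 0.0378 and 0.0661 in AKI. The summed loop and distal markers were at 14.2 in control type A cells, 5.10 and 4.94 in AKI, and 13.3 and 4.23 in CKD, and T lymphocytes carried 19.1 in control and 1.30 to 6.85 elsewhere. Their part in these falls was not tested. The Slc12a3 call was lost without members carrying 5 or more UMIs of other cells' markers. Acot3, a peroxisomal thioesterase, fell from 0.690 to 0.0792 and 0.0984 (-3.04, SE 0.28, adjusted p = 0.00136 by edgeR's quasi-likelihood test), and that call held under every setting.

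Hmx2 fell in AKI from 0.805 to 0.271 and 0.139 (-1.98, SE 0.32, adjusted p = 0.0127 by edgeR's quasi-likelihood test), and Insrr from 0.862 to 0.362 and 0.107 (-1.86, SE 0.39, adjusted p = 0.0367). The Insrr call was lost without AKI 2, and the levels without the members close to the Slc26a4 limit are those given above. In pendrin-positive cells, where both genes are more abundant, Hmx2 was at 5.69 in control and 4.36 and 5.12 in AKI. The AKI change of type A minus that of pendrin-positive cells was -1.66 for Hmx2 (adjusted p = 0.00604) and -1.53 for Insrr (adjusted p = 0.0176), in an interaction fit added after seeing the data that called 0.286% of 10476 genes. The same kind of fit called 0.344% of them for CKD against AKI. Between type A and principal cells it called 0.089% of 11233 genes for AKI against control and 0.0712% for CKD against AKI.

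Injury and p53 target genes rose in AKI: 10 of 19 tested were called higher and none lower, with a median log2 change of 1.69 beside 0.0026 over all genes and a 2.21% share of all genes called higher. Spp1, the gene of the secreted phosphoprotein osteopontin, was at 13.3 UMIs per 10000 in control, 91.9 and 106 in AKI, and 105 and 173 in CKD. It rose by 2.82 in AKI (SE 0.31, adjusted p = 0.00299) and 3.43 in CKD (SE 0.33, adjusted p = 0.00445), both by edgeR's quasi-likelihood test. A Spp1 UMI was in 91.0% of control members and in 95.7 to 100% of injured members, so the rise lay in level more than in this share. Clu, the chaperone clusterin, was at 5.31 in control, 37.7 and 44.6 in AKI, and 23.0 and 31.8 in CKD, rising by 2.88 in AKI (SE 0.28) and 2.41 in CKD (SE 0.27). The injured libraries did not overlap control for either gene, and all 4 calls held under every setting.

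The simple epithelial keratins moved unequally. Krt8 was at 2.83 UMIs per 10000 in control, 14.4 and 10.3 in AKI, and 5.88 and 5.44 in CKD, a rise of 2.06 in AKI (SE 0.27). Its partner Krt18 was at 3.02 in control, 11.4 and 9.10 in AKI, and 5.63 and 5.20 in CKD, a rise of 1.69. Krt7 was at 4.15 in control, 4.91 and 4.52 in AKI, and 3.02 and 2.63 in CKD and was not called. For Krt8 and Krt18 the CKD libraries lay between control and AKI. Cdkn1a, the cell cycle inhibitor p21 induced by p53, was at 0.190 in control, 1.38 and 1.52 in AKI, and 1.49 and 0.526 in CKD (2.85 in AKI, SE 0.46). Havcr1, the proximal tubule injury marker KIM-1, had 1 UMI in control and was 90.5-fold higher in AKI (counting interval 15.7 to 3632), in 2 and 3 AKI members only, and its call was lost without AKI 1.

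Fewer members of the injury list were called higher on leaving out AKI 1 or AKI 2, in fits that also called fewer of all genes. More were called on leaving out CKD 1 or CKD 2, in fits that called more of all genes. With the Aqp2-poor members 6 of 18 were called, and without members carrying other cells' markers 6 of 13. In these settings 122 of 7937 and 243 of 6344 genes were called higher. In CKD against control 3 of 19 were called, Clu, Spp1 and Cdkn1a, beside 0.68% of all genes called higher, with a median of 1.05. That CKD count was 10 without CKD 2, when 695 of 10389 genes were called higher. Without CKD 1 it was 5 higher and 2 lower, when 310 of 10319 genes were called higher and 275 lower. The summed injury genes were at 34.6 UMIs per 10000 in control type A cells, 174 and 190 in AKI, and 153 and 222 in CKD. In pendrin-positive cells they were at 46.4 in control, 210 and 255 in AKI, and 211 and 203 in CKD. In principal cells they were at 52.1 in control, 203 and 220 in AKI, and 195 and 174 in CKD. In T lymphocytes they were at 12.6 in control, 42.9 and 35.6 in AKI, and 34.5 and 13.03 in CKD, so the sum was lowest in control in every class. The part of RNA from other cells in the type A values was not tested.

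Of 18 interferon-stimulated genes tested, 12 were called higher in AKI and none lower, beside 2.21% of all genes called higher, with a median log2 change of 2.57. Iigp1, an interferon-inducible GTPase, was at 0.0413 UMIs per 10000 in control, 0.905 and 0.639 in AKI, and 0.252 and 0.384 in CKD, and rose by 4.15 in AKI (SE 0.37, adjusted p = 0.00136) and 2.88 in CKD (adjusted p = 0.0193). Gbp2, a guanylate-binding protein, was at 0.0115 in control and 0.622 and 0.295 in AKI (5.21, SE 0.58), and Irgm1 at 0.199 in control and 0.888 and 0.853 in AKI (2.05). Rtp4 rose by 3.53 in AKI. An Iigp1 UMI was found in 19 of 68 and 13 of 46 AKI members, with 35.6 and 39.7% of its UMIs in 1 cell. Gbp2 had 5 UMIs in control and was found in 15 of 68 and 15 of 46 AKI members. Irgm1 was more widespread, in 36 of 68 and 24 of 46. Isg15 was at 0.0917 in control, 0.797 and 0.385 in AKI, and 1.37 and 0.0202 in CKD and was not called. The GTPase genes separated control from the injured libraries, and Isg15 did not separate CKD 2.

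In CKD against control 71 genes were called of those tested, 69 higher and 2 lower (Slc12a3 and Trabd2b), or 0.7% (0.68% higher, 0.0197% lower), and 6 of 18 interferon-stimulated genes were among the higher ones (median 2.76). The total was 162 without AKI 1, 142 without AKI 2, 585 without CKD 1 and 921 without CKD 2, with 68, 65, 62 and 71 of the 71 genes still called. With the Aqp2-poor members the total was 87, of which 48 were among the 71, and the calls of Cdkn1a, Gbp2, Irgm1, Rtp4 and Tap1 were lost. Those members gave 3 calls of 16 interferon-stimulated, 2 of 9 MHC class I, 4 of 18 injury and 5 of 13 innate defence genes, all higher, and 1 lower call of 19 acid-base genes. With a mitochondrial limit of 15% the total was 24, and the calls of Gbp2, Irgm1, Cdkn1a, Nfkbia, Tmem158, Vim and Slc12a3 were lost. The interferon count was 11 without AKI 1, 9 without AKI 2, 6 without CKD 1 and 17 without CKD 2, and the list's median was 1.25 without CKD 1. In AKI it was 11 without AKI 1, 9 without AKI 2, 18 on leaving out CKD 1 or CKD 2, and 6 of 16 with the Aqp2-poor members.

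The genes of antigen presentation by MHC class I followed. Psmb8, an immunoproteasome subunit, was at 0.135 UMIs per 10000 in control, 1.04 and 0.959 in AKI, and 1.11 and 0.971 in CKD. It rose by 2.81 in AKI (SE 0.26, adjusted p = 0.00136) and 3.01 in CKD (adjusted p = 0.00323), both by edgeR's quasi-likelihood test. It was found in 17.0% of control members against 50.8 to 63.2% of the others, and 52.1% of its CKD 2 UMIs came from 1 cell. H2-K1, a class I heavy chain, was at 2.68 in control, 9.50 and 9.09 in AKI, and 5.80 and 3.64 in CKD (1.72 in AKI, SE 0.30). B2m, the class I light chain, was at 1.49 in control, 5.49 and 5.56 in AKI, and 4.92 and 2.61 in CKD (1.82 in AKI). Of 10 class I genes 8 were called higher in AKI (median 1.81) and 4 in CKD (median 1.396), beside 2.21 and 0.68% of all genes called higher, with 6 in AKI on leaving out AKI 1 or AKI 2 and 4 of 9 with the Aqp2-poor members. In CKD the count was 7 without CKD 1 and 8 without CKD 2.

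T lymphocytes, which were more frequent in the injured libraries, express these genes highly. The interferon-stimulated genes summed to 17.3 UMIs per 10000 in control T lymphocytes and 28.7 to 30.8 in the others, and to 1.91 in control type A cells, 9.68 and 8.40 in AKI, and 8.85 and 4.91 in CKD. The MHC class I genes summed to 56.8 in control T lymphocytes and 69.4 to 79.0 in the others, and to 7.56 in control type A cells, 27.2 and 26.8 in AKI, and 19.98 and 13.9 in CKD. Both sums were lowest in control in the nearest classes too. The interferon-stimulated genes were at 1.31 in control and 5.15 and 4.41 in AKI in pendrin-positive cells, and at 3.83, 11.2 and 8.39 in principal cells. The class I genes were at 5.42, 14.5 and 19.7, and at 12.3, 43.6 and 39.2, in the same order. The T lymphocyte markers themselves summed to 0.105 in control type A cells, 2.78 and 0.639 in AKI, and 5.15 and 0.870 in CKD, against 61.1 to 96.7 in T lymphocytes. Without members carrying 5 or more UMIs of other cells' markers, 11 of 15 interferon-stimulated and 7 of 9 class I genes were called higher in AKI. In that setting 243 of 6344 genes were called higher. The markers counted include Aqp2 besides Cd3 genes, and members with fewer such UMIs were kept. The part of free or admixed lymphocyte RNA in the rises was not tested, with all members or in that setting. The 6 MHC class II genes tested had no call, with a median of 1.52 in AKI.

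Innate defence genes had 7 of 14 members called higher in AKI (median 3.10) and 3 in CKD, namely Cxcl10, Ccl2 and Nfkbia (median 2.48), beside 2.21 and 0.68% of all genes called higher. Lcn2, the siderophore-binding protein NGAL, was at 0.390 UMIs per 10000 in control, 8.86 and 8.99 in AKI, and 3.97 and 0.708 in CKD (4.44 in AKI, SE 0.78, adjusted p = 0.0171 by edgeR's quasi-likelihood test), and 88.6% of its UMIs in CKD 2 came from 1 cell. Cxcl10, a chemokine induced by interferon, was at 0.165 in control, 2.30 and 1.64 in AKI, and 3.44 and 1.496 in CKD (3.51 in AKI, SE 0.49, and 3.997 in CKD, SE 0.50). Its UMIs were in 11.7% of control members and 58.7 to 71.8% of the others. Nfkbia, the feedback inhibitor of NF-κB, was at 1.49 in control, 8.75 and 7.85 in AKI, and 5.97 and 5.01 in CKD (2.41 in AKI, SE 0.25). All injured libraries lay above control for these 3 genes, with CKD 2 close to it for Lcn2. Against principal cells, 7 of 13 tested members were called lower in type A cells and only Pigr higher, beside 12.4% of all genes called lower and 12.6% higher. The list summed to 38.9 UMIs per 10000 in control type A cells, 70.6 and 69.0 in AKI, and 52.9 and 44.3 in CKD. In principal cells the sum was 50.8 in control, 84.6 and 93.3 in AKI, and 72.8 and 70.2 in CKD, and in T lymphocytes 22.3, 35.6 and 38.3, and 38.2 and 32.9. Control was thus the lowest library in all 3 classes, and the part of RNA from other cells in the type A values was not tested.

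Pigr, the receptor that carries IgA across epithelium, was at 0.122 in control, 1.62 and 2.84 in AKI, and 0.520 and 1.76 in CKD (4.11 in AKI, SE 0.65). Cxcl1, a neutrophil chemokine, rose by 4.18 in AKI, and its call was lost without AKI 1. Ccl2 had 0 UMIs in control and was at least 11.7-fold higher in AKI and at least 23.6-fold higher in CKD. Defb1, a constitutive defensin, was at 27.9 in control, 28.2 and 26.9 in AKI, and 23.6 and 24.9 in CKD, and Wfdc2 at 7.42 in control, 16.04 and 16.7 in AKI, and 12.5 and 7.89 in CKD; neither was called. The AKI count was 6 without AKI 1, 7 without AKI 2, 11 on leaving out CKD 1 or CKD 2 and 4 of 13 with the Aqp2-poor members. In CKD it was 6 without AKI 1 or AKI 2, 5 without CKD 1 and 10 without CKD 2, and the CKD median was 0.88 without CKD 1.

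**Figure D4:**
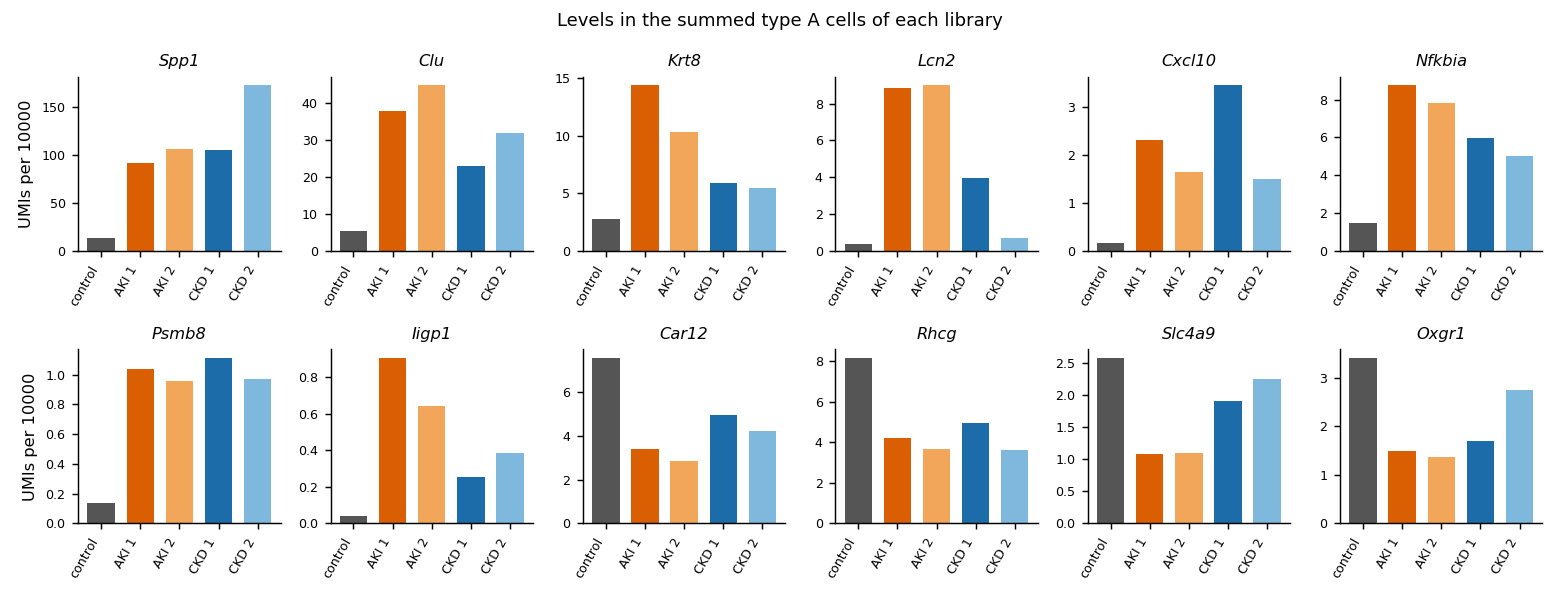
Levels of 12 genes in the type A cells of each library, as bars from 0 in UMIs per 10000 of summed UMIs. Spp1, Clu, Nfkbia, Cxcl10 and Psmb8 are above control in all 4 injured libraries, and Car12, Rhcg, Slc4a9 and Oxgr1 are below it.

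Of 19 tested acid-base and ion transport genes 5 were called lower in AKI and none higher, while 5 of the 19 had a log2 change above 0, and the median was -0.33, beside 0.857% of all genes called lower. Car12 was at 7.54 UMIs per 10000 in control, 3.38 and 2.86 in AKI, and 4.94 and 4.21 in CKD (-1.34 in AKI, SE 0.22, adjusted p = 0.0127 by edgeR's quasi-likelihood test). The ammonia transporter Rhcg was at 8.16 in control, 4.22 and 3.66 in AKI, and 4.93 and 3.60 in CKD (-1.12, SE 0.24), and Rhbg at 7.58 in control, 4.19 and 3.71 in AKI, and 5.21 and 4.91 in CKD (-1.01, SE 0.20). Slc4a9 was at 2.57 in control, 1.09 in both AKI libraries, and 1.91 and 2.24 in CKD (-1.31, SE 0.20). Bsnd, the barttin subunit of chloride channels, fell by 1.00. For all 5, both AKI libraries lay below control. All 5 calls were lost without AKI 2, and all but that of Car12 without AKI 1. Car12, Slc4a9 and Bsnd were also called lower in type A than in pendrin-positive cells, while Rhbg was called higher there and Rhcg was not called. Members close to the Slc26a4 limit were 10.3% in control and 8.82 and 2.17% in AKI, and their part in these falls was not tested. The list summed to 147 in control type A cells, 132 and 115 in AKI, and 138 and 136 in CKD. This sum covers all 26 genes of the list. Among them are Slc4a1, Aqp6 and Slc26a4, which chose the cells, so the sum is a description only. T lymphocytes, which should lack most of these genes, carried 30.03 in control, 11.3 and 6.82 in AKI, and 12.5 and 3.76 in CKD, so this background was highest in control too, and its part in the falls was not tested.

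Among members of the list with no call, Car2 was at 22.6 in control, 20.9 and 17.0 in AKI, and 23.2 and 27.4 in CKD. Car15 was at 6.65 in control, 13.0 and 8.94 in AKI, and 10.7 and 9.69 in CKD. Neither was called, and Car15 was higher than control in all 4 injured libraries. Fewer falls were called on leaving out AKI 1 or AKI 2. More falls, and a rise, were called on leaving out CKD 1 or CKD 2, in fits that also called more of all genes. With the Aqp2-poor members 1 was called lower, when 21 of 7937 genes were called lower. No member of the list was called in CKD against control with all type A cells.

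For the proton pump, Atp6v1a, the catalytic V1 A subunit, was at 18.4 UMIs per 10000 in control, 9.28 and 8.03 in AKI, and 10.1 and 14.5 in CKD (-1.16 in AKI, SE 0.24, adjusted p = 0.0327 by edgeR's quasi-likelihood test). It was the only called subunit, beside 0.857% of all genes called lower, and the call was lost without AKI 1 and without AKI 2. Atp6v1b1 was at 5.44 in control, 2.87 and 3.17 in AKI, and 3.15 and 4.45 in CKD, with a log2 change of -0.92 (adjusted p = 0.0665). Atp6v0a4 was at 7.38 in control, 5.38 and 4.76 in AKI, and 6.41 and 7.40 in CKD, and Atp6v0c, the membrane rotor subunit, at 25.1 in control, 17.3 and 15 in AKI, and 20.5 and 23.1 in CKD. The AKI libraries were the lowest for Atp6v0a4 and Atp6v0c, and CKD 2 lay near control. The medians were -0.54 for V1 and -0.30 for V0 and accessory subunits, beside 0.0026 over all genes. More subunits were called lower on leaving out CKD 1 or CKD 2, in fits that also called more of all genes. In T lymphocytes the V1 sum without Atp6v1g3 was 12.7 in control, 8.57 and 7.97 in AKI, and 10.7 and 7.82 in CKD. The part of this background in the falls was not tested.

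Among the lineage factors, Hmx2 was the only one of 15 called in AKI, beside 0.857% of all genes called lower. Foxi1 was at 4.48 UMIs per 10000 in control, 3.26 and 3.58 in AKI, and 2.19 and 5.30 in CKD (adjusted p = 0.634), and Tfcp2l1, a partner factor of collecting duct cells, at 10.4 in control, 7.50 and 8.34 in AKI, and 6.33 and 9.75 in CKD. Dmrt2 was at 1.09 to 1.94 with control at 1.37, inside the injured range. Of 14 type markers and receptors, Insrr and Oxgr1 were called lower, beside the same share of all genes. Oxgr1, the alpha-ketoglutarate receptor of intercalated cells, was at 3.41 in control, 1.49 and 1.36 in AKI, and 1.69 and 2.75 in CKD (-1.33, SE 0.26), a call lost without AKI 1 and without AKI 2. Kit had a log2 change of -0.71 (adjusted p = 0.148). Foxi1 and Kit were called lower without CKD 1 and without CKD 2. The adjusted p-values are from edgeR's quasi-likelihood test.

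Of 79 nuclear respiratory chain genes 2 were called lower in AKI, Cox7a1 and Cox7b, beside 0.857% of all genes called lower, with a median of -0.55 and 1 gene above 0. They summed to 670 UMIs per 10000 in control, 508 and 454 in AKI, and 589 and 524 in CKD, so the AKI libraries were the lowest. In T lymphocytes they summed to 275 in control, 228 and 209 in AKI, and 298 and 247 in CKD, with the AKI libraries lowest there too. The 13 mitochondrially encoded genes set the mitochondrial share on which barcodes were kept, and their levels are given as a description. They stayed in the fits, and the counts of all genes called include 6 of them as lower in AKI. Against pendrin-positive cells 3 were counted as lower, and against principal cells 11 as higher. The 13 genes summed to 1844 in control, 1102 and 1244 in AKI, and 1586 and 1743 in CKD. The limit on that share left out 38.7% of barcodes in control and 11.1 to 12.7% in the other libraries, and its part in these levels was not tested.

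**Figure D5:**
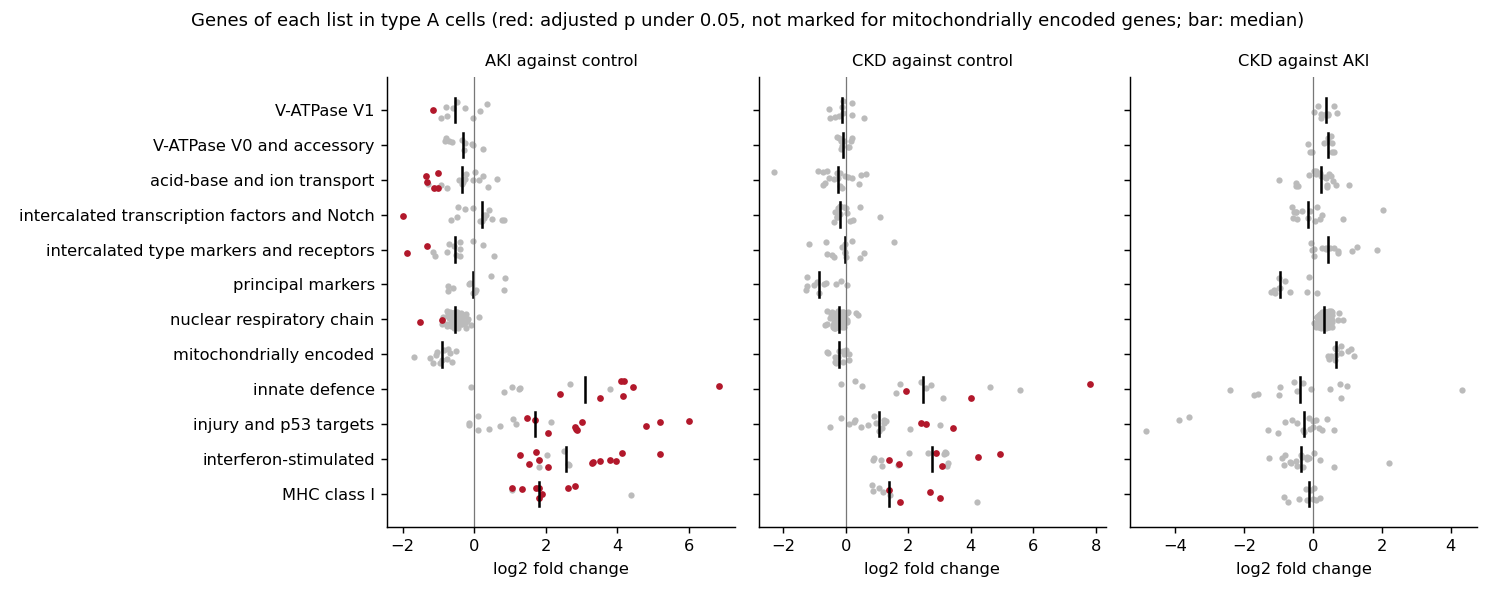
Log2 changes of the tested members of 12 gene lists in AKI against control, CKD against control and CKD against AKI, with 1 point per gene, called genes in red and a bar at the list's median. Interferon-stimulated genes have medians of 2.57 and 2.76 against control, V1 subunits of -0.54 in AKI, and no point is red between CKD and AKI. Calls are not marked for the mitochondrially encoded genes.

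In CKD against control the rises given by the naming rule included, beside Plac8 and Cxcl10, Tmem158 and Vim. Tmem158, a gene induced by Ras signalling, was at 0.117 UMIs per 10000 in control, 2.17 and 2.10 in AKI, and 0.862 and 2.57 in CKD (3.81, SE 0.57, adjusted p = 0.0201 by edgeR's quasi-likelihood test). Vim, the mesenchymal intermediate filament vimentin, was at 0.0367 in control, 0.435 and 0.189 in AKI, and 1.81 and 0.263 in CKD (5.03, SE 0.93), so CKD 1 stood above the rest. The fibroblast markers summed to 0.163 and 0.0607 in the 2 CKD libraries and the macrophage markers to 2.16 and 0.202, beside 0.0321 and 0.452 in control. T lymphocytes also express Vim, and the part of their RNA in the CKD 1 value was not tested. Tmem158 lay above control in all 4 injured libraries. Trbc2, a T cell receptor gene outside the naming rule and singled out after its values were seen, was also called higher in CKD and stayed so in all 13 settings. It had 3 UMIs in control and was 72.5-fold higher in CKD (counting interval 24.0 to 358), in 3 of 223 control members and in 46 of 124 and 7 of 23 CKD members.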

How the data were processed

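Single-cell RNA was measured in 5 droplet libraries, grouped by their labels (1 control, 2 AKI, 2 CKD). The authors deposited raw UMI count matrices, per the labels made with Cell Ranger 7.2.0, which runs STAR; the processing notes name GRCm39, while the file headers give cellranger 5.0.0 and the control's gene table names mm10. The study's methods name CellBender for ambient RNA and scDblFinder for doublets; the deposited matrices still hold barcodes above the study's mitochondrial limit, and whether they were corrected or cleared of doublets is not stated. No doublet caller was run here. From the counts, members were chosen and summed per library, and sums of libraries were tested with edgeR 4.0.16 (quasi-likelihood, TMM, filterByExpr, all 5 libraries in 1 fit, Benjamini-Hochberg adjustment, threshold 0.05) in R 4.3.3. The lone control shared the other groups' spread. Class comparisons and interactions used a library block. DESeq2 1.42.0 was an alternative. The steps were tested on simulated data.

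Members and gene lists were chosen with earlier results of these data known. Named by rule were the largest called changes with a mean log2 CPM of at least 5 and, for AKI or CKD against control, no overlap with control libraries or, for classes, the same sign in every library (5 in each direction against control, 10 for classes), and in each list up to 6 genes in list order with up to 5 called members. Elf5, Slc12a2, Cdkn1a, Ccl2, Oxgr1, Cox7a1, Cox7b, Trabd2b and Trbc2 were singled out after their values were seen. Some genes that the rule names are not reported here. Alternatives were no TMM, no filter, a mitochondrial limit of 15%, at least 3 UMIs of each choosing gene, no members with 5 or more UMIs of other cells' markers, no mitochondrially encoded genes, a replicate block, and each library left out. The Aqp2-poor setting, the levels away from the Slc26a4 limit and the interactions were added after seeing the data. Samples numbered alike in AKI and CKD were not taken as pairs, since there are only 2 and the correlation of their deviations was 0.166 over 9122 genes.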

Additional observations from a re-analysis of the deposited data

Results flagged for a closer look

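Differences between cell classes in their response were tested as interactions, which were added after seeing the data, and in each of 4 fits the 4 genes with the smallest adjusted p among those with a mean log2 CPM of at least 5 are given here with no explanation. Larger differences were called for other genes. In AKI against control, the log2 change in type A minus that in pendrin-positive cells was 6.60 for Aqp1, -3.84 for P2ry14, 3.45 for Ccn2 and -2.75 for Nupr1, in a fit that called 30 of 10476 genes. P2ry14 was at 0.692 UMIs per 10000 in control type A cells and 1.02 and 1.15 in AKI, while in pendrin-positive cells it was at 0.0384 in control and 0.567 and 1.27 in AKI. Aqp1, a proximal tubule water channel, was at 0.0596 in control type A cells and 0.0452 and 0.984 in AKI, so its rise there rested on AKI 2. In pendrin-positive cells Aqp1 was at 0.915 in control and lower in both AKI libraries, at 0.0556 and 0.0830.

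In CKD against AKI, the difference between type A and pendrin-positive cells was -6.86 for Sprr2f, -5.84 for Aqp1, 2.68 for Hmx2 and 2.33 for Insrr, with 36 genes called. Of the Sprr2f UMIs of type A cells, 84.4% in AKI 1 and 39.2% in AKI 2 came from 1 cell. CKD 1 had 11, all in 1 cell, and CKD 2 had 0. Aqp1 was at 1.97 and 0 in CKD pendrin-positive cells, a level that rested on CKD 1. Hmx2 was at 4.36 and 5.12 in AKI pendrin-positive cells and 2.80 and 2.78 in CKD, and in type A cells at 0.271 and 0.139 in AKI and 0.667 and 1.01 in CKD.

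Between type A and principal cells, the AKI against control change differed by 4.74 for S100a6, 6.86 for Aqp1, -3.91 for Ociad2 and -2.04 for Car12, with 10 of 11233 genes called. S100a6 was at 0.0711 in control type A cells and 1.83 and 2.15 in AKI, and at 1.29 in control principal cells and 0.818 and 1.84 in AKI. For CKD against AKI the difference was -5.83 for Aqp1, 2.49 for Slc12a1, -2.14 for Pigr and 1.30 for Car15, with 8 genes called. Slc12a1 was at 0.113 and 0.0410 in AKI type A cells and 1.41 and 0.0404 in CKD, and Aqp1 at 1.30 and 0 in CKD principal cells, so these levels rested on CKD 1. Car15 was at 22.6 and 19.5 in AKI principal cells and 9.22 and 7.46 in CKD.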

How the results depend on the processing

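For CKD against AKI, where 0 genes were called, DESeq2 called 34, no filter 275, at least 3 UMIs of each choosing gene 9, removal of members with other cells' markers 31, the Aqp2-poor members 7, and the replicate block 190, and leaving out 1 library gave 9 to 544. For AKI against control (311), DESeq2 called 174, no filter 906, the 15% mitochondrial limit 79, at least 3 UMIs 484 and the Aqp2-poor members 143, and leaving out 1 library gave 167 to 1726. For CKD against control (71), no TMM gave 42, no filter 540, the 15% limit 24, at least 3 UMIs 150 and removal of members with other cells' markers 202, and leaving out 1 library gave 142 to 921. Against pendrin-positive cells (1348), DESeq2 called 762, the 15% limit 776, the Aqp2-poor members 574 and no library block 356, with 867 to 1397 on leaving out 1 library. Against principal cells (2341), DESeq2 called 1548, the 15% limit 1158 and no library block 1079, with 1453 to 2239. The CKD minus AKI share was -0.473 points of cells without Ptprc UMIs, -11.2 points of type A plus pendrin-positive cells, and -0.273 to 0.127 on leaving out 1 library. With the Aqp2-poor members the differences from pendrin-positive cells reversed for Aqp2 (-4.30), by construction, and Fxyd4 (-1.18). The cause of these shifts was not tested. Of 52 genes followed in AKI against control, 16 stayed on the same side of the threshold in every setting that tested them (Dmrt2, never called, among them), 31 lost a call under at least 1 setting and 5 gained one. With 23 members in CKD 2, low genes rest on few UMIs.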

Other observations

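Other gene groups were summed or tested in the type A cells and belong to no comparison above. Of 17 immediate-early and heat shock genes, which respond within minutes to dissociation and stress, 1 was called higher in AKI against control, Ier3, beside 2.21% of all genes. Ier3 was at 2.54 UMIs per 10000 in control, 5.79 and 7.23 in AKI, and 4.32 and 4.65 in CKD, and its call was lost without AKI 2. All 17 had a log2 change above 0 in AKI (median 0.53), and they summed to 186 in control, 262 and 265 in AKI, and 194 and 226 in CKD. The part of dissociation in this lean was not tested. Fos was at 32.8 in control, 36.3 and 36.9 in AKI, and 29.6 and 40.1 in CKD, a range in which control lay inside the injured libraries. None of 9 cell cycle, 13 glycolysis or 6 metallothionein and iron genes was called in AKI against control. The proximal tubule markers summed to 11.9 in control, 20.2 and 6.93 in AKI, and 23.8 and 17.3 in CKD, and the endothelial markers to 0.502, then 0.322 and 0.295, then 0.528 and 1.05. Slc26a7, a chloride and bicarbonate exchanger of type A cells singled out after its values were seen, was at 0.984 in control, 0.571 and 0.246 in AKI, and 0.260 and 0.0607 in CKD, and was not called in AKI against control (adjusted p = 0.134 by edgeR's quasi-likelihood test), although it was called lower in 6 of 13 other settings, among them those without AKI 1, without CKD 1 and without CKD 2.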
